A study of Bos taurus with 8 samples.

Results

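The microRNAs (miRNAs) of the imprinted DLK1-DIO3 region were measured in the mammary gland of 4 Holstein-Friesian heifers, a dairy breed, and 4 Limousin heifers, a beef breed. They were taken as every miRNA on the array, control spots left out, with a probe annotated on chromosome 21 between bases 67200000 and 67900000 of the bovine build UMD 3.1 and a name number below 1200. This gave 55 miRNAs with 128 probes, out of 763 miRNAs with 1657 probes on the array. The heifers were not pregnant. Their age is 20 months by one label and 2 years by another. Neither breed was treated or modified, and each sample is labelled as a biological replicate. Each sample had its own one-colour Agilent array, all 8 on 1 slide, so the number of arrays limits the precision. The Limousin arrays were brighter: the 75th percentile of the signal over probes detected everywhere was 943 to 1579 there and 557 to 939 on the Holstein-Friesian arrays. Position on the slide went with breed, and the 2 cannot be told apart.

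The DLK1-DIO3 region is a textbook imprinted domain. The protein-coding genes DLK1, RTL1 and DIO3 are expressed from the paternal chromosome, and a string of noncoding RNAs, among them MEG3, MEG8 and MEG9, from the maternal one. The miRNAs are cut from these maternal transcripts, a first set near MEG3 and antisense to RTL1 and a second, denser set downstream, and they are best known from brain, placenta and muscle. In sheep, a mutation between DLK1 and MEG3 gives the callipyge muscle phenotype. All 52 hairpin names of the 55 miRNAs were found as chromosome 21 genes in RefSeq's table for the assembly ARS-UCD2.0. There MIR493 and MIR665 follow MEG3, MIR431, MIR433 and MIR127 follow RTL1 and its antisense gene PEG11AS, and MIR656 is the last before MEG9. The 8 miRNAs from miR-493 to miR-370 are called the proximal group here and the 47 from miR-379 to miR-656 the distal group.

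The probes show what the array could and could not tell apart. An Agilent miRNA probe pairs with a miRNA from its 3′ end, so a short probe may leave out part or all of the seed near the 5′ end. For the 7 miRNAs outside the miR-376 family that differed between breeds, and for miR-127, the probe used is given 5′ to 3′ as deposited. G and C are in capitals, because probe GC content is set beside the differences further on.
miR-665: aGGGGCCtCGGC
miR-370: aCCaGGttCCaCCCC
miR-380-3p: aGaCGtGGaCCaCatt
miR-494: GaGGtttCCCGtGt
miR-487a: aCtGGatGtCCCtGtat
miR-1185: aaCataCaaaGGGtatCCt
miR-409a: atGCaaaGttGCtCGGGta
miR-127: aGCCaaGCtCaGaCGGat
The first 5 were lower in Limousin and had 12 to 17 bases. The next 2 were higher there and had 19 bases each. The last did not pass the test and had 18. GC content did not part the 2 directions: it was 47.1% for miR-487a, lower in Limousin, and 47.4% for miR-409a, higher there.

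Most probes of the miR-376 family are nearly one sequence. Capitals mark the run of 14 bases that is the same in the probes of miR-376a, miR-376b, miR-376d and miR-376e.
miR-376a: acgTGGATTTTCCTCTA
miR-376b: aacaTGGATTTTCCTCTAtg
miR-376d: atgTGGATTTTCCTCTAtg
miR-376e: aatgTGGATTTTCCTCTAtg
The probe of miR-376d lies whole, with its 19 bases, inside the probe of miR-376e, so the separate values of these members are uncertain. A second pair, miR-495 and miR-543, shares its first 12 bases, in capitals.
miR-495: AAGAAGTGCACCatgtttgt
miR-543: AAGAAGTGCACCgcgaatg

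Detection came first. A miRNA was taken as detected where over 50% of the spots of any of its probes were well above background. Of the 55 miRNAs, 25 (45.5%) were detected on all 8 arrays, 6 on some and 24 on none. Of the other 708 miRNAs of the array, 29.2% were detected on all 8. The limit on name numbers was set for the cluster alone, and the 708 include entries with higher name numbers. These shares therefore come from unlike sets, and no better detection of the cluster is read from them. In the proximal group 5 of 8 were detected on every array: miR-665, miR-127, miR-432, miR-136 and miR-370. The 3 others, miR-493, miR-431 and miR-433, were detected on none. The distal group had 20 of 47 detected on all 8 arrays, 6 on some and 21 on none. From miR-380-5p to miR-329a, the only one of 8 successive entries to be detected was miR-380-3p, the other arm of the first hairpin. The remaining 7 were miR-380-5p, miR-411b, miR-1197, miR-323, miR-758, miR-329b and miR-329a. A second silent stretch of 6 entries ran from miR-134 to miR-496, with miR-485, miR-453, miR-154a and miR-154b between them. Also detected nowhere were miR-1193, miR-654, miR-539, miR-544a, miR-541, miR-409b, miR-412 and miR-656. A miRNA below background here has only an upper bound, and these short probes of different composition do not bind alike.

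**Figure D1:**
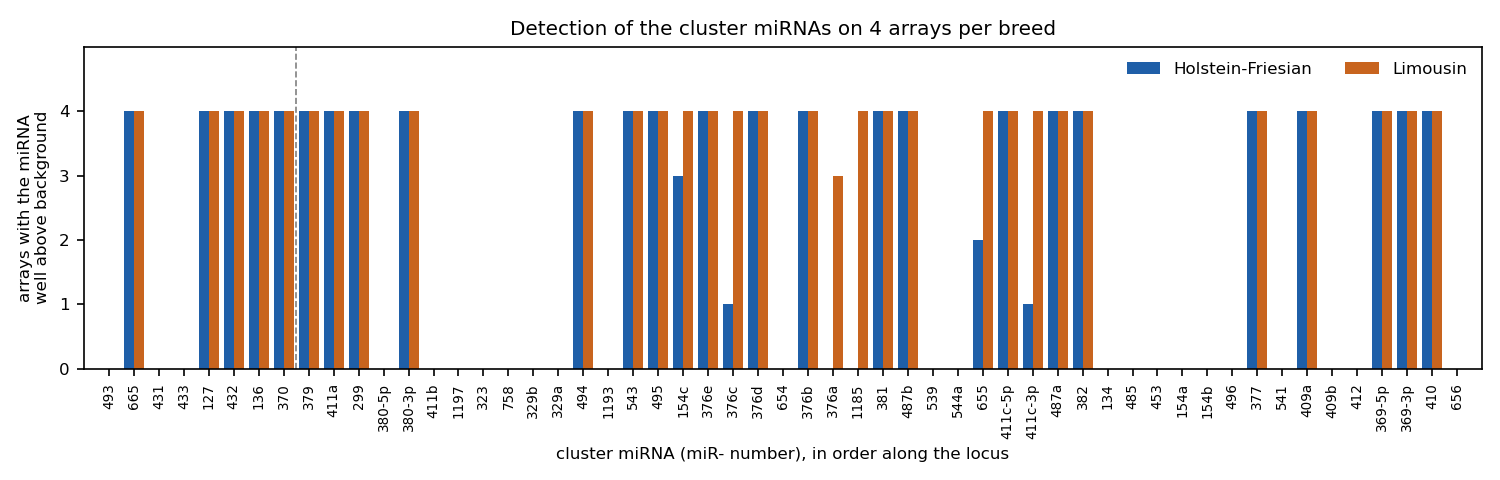
Number of arrays per breed (0 to 4) on which each of the 55 miRNAs was well above background, in order along the locus; the dashed line parts the proximal from the distal group. Of the miRNAs, 25 reach 4 arrays in both breeds, 24 are at 0 in both, and the 6 between have fewer Holstein-Friesian than Limousin arrays.

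Each of the 6 miRNAs detected on some arrays was detected on more Limousin than Holstein-Friesian arrays. They were miR-1185 (0 Holstein-Friesian and 4 Limousin arrays), miR-376a (0 and 3), miR-376c (1 and 4), miR-411c-3p (1 and 4), miR-655 (2 and 4) and miR-154c (3 and 4). By array, 26, 28, 27 and 26 of the 55 were detected in Holstein-Friesian replicates 1 to 4 and 31, 31, 30 and 31 in Limousin. The number over the whole array also differed, with 243 to 267 miRNAs detected on the Holstein-Friesian and 271 to 297 on the Limousin arrays. The lowest scaled log2 signal that counted as detected was 4.33 to 4.90 in Holstein-Friesian and 3.39 to 4.08 in Limousin. For miR-376a the scaled signals were 3.83, 4.25, 4.11 and 3.73 in Holstein-Friesian and 4.13, 3.99, 4.12 and 4.06 in Limousin, so the breeds overlapped although the arrays counted as detected were all Limousin. The means of miR-376c and miR-655 were lower in Limousin, where both were detected more often. The part of the brightness of the arrays in these detection counts was not tested.

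Levels are scaled log2 signals: each array was divided by its 75th percentile over probes detected on all arrays, values under 1 were set to 1, and log2 was taken. They rank arrays for 1 miRNA, but not 1 miRNA against another, because probes differ in how they bind. In the proximal group miR-127, antisense to the coding sequence of RTL1, read 9.91, 10.20, 9.78 and 9.83 in Holstein-Friesian and 9.91, 10.01, 10.03 and 10.19 in Limousin. The breeds overlapped, and the log2 difference, Limousin minus Holstein-Friesian as in all that follows, was 0.10 (SE 0.13; limma adjusted p = 0.560). The neighbour miR-136, also antisense to RTL1, read 6.37, 7.41, 6.79 and 7.30 against 7.18, 7.38, 7.24 and 7.62. Its difference of 0.39 was within the spread (adjusted p = 0.192), with Holstein-Friesian replicate 1 lowest. The third, miR-432, read 5.04, 5.48, 4.88 and 4.98 against 4.74, 4.66, 5.03 and 5.04, a difference of -0.23 (adjusted p = 0.272).

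**Figure D2:**
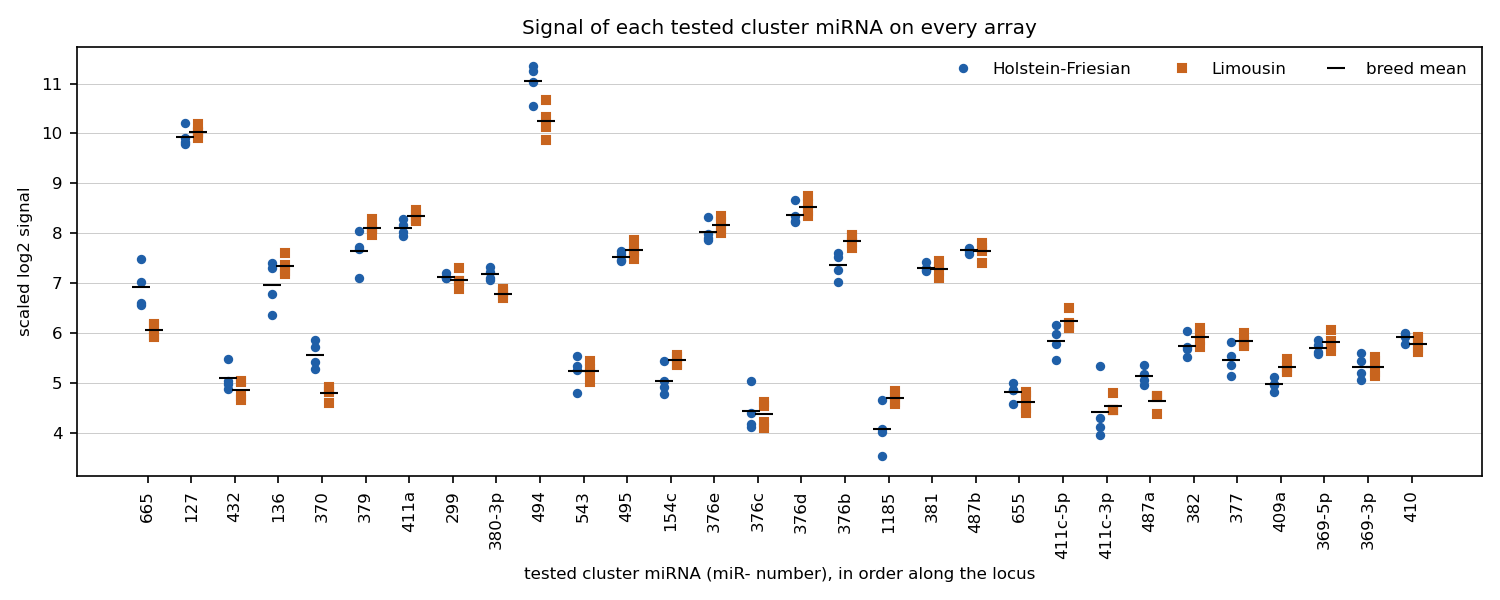
Scaled log2 signal of the 30 tested miRNAs, in order along the locus, with 1 point per array and a bar at the mean of each breed. The breeds overlap for 24 of the 30, and the 2 brightest probes, miR-494 and miR-127, cannot be ranked against the others as amounts of miRNA.

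To ask how the breeds differed, the 269 miRNAs with detection in every animal of 1 breed or both were fitted together in limma, and p-values were adjusted over all 269 by the method of Benjamini and Hochberg. Of the 30 cluster miRNAs that passed this filter, 3 were higher and 5 lower in Limousin at an adjusted p under 0.05, and 22 did not pass. Of all 269 tested, 42.0% passed, 13.8% as higher and 28.3% as lower. The cluster's share of 26.7% therefore lay below the background, and no shift of the cluster as a whole is read from it. The median log2 difference was 0.11 over the 30 and -0.07 over the 269. In 6 of the 30, 2 higher and 4 lower, all arrays of one breed lay above all of the other. Over the array this held for 36.8%, 43 of them higher and 56 lower. Of the 30, miR-1185, miR-154c, miR-376c, miR-655 and miR-411c-3p passed the filter through Limousin alone.

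Directions rest on the scaling. Without scaling the median log2 difference was 0.79 over all 269 miRNAs and 0.96 over the 30, and 25 of the 30 were higher in Limousin and 0 lower, where 172 of the 269 were higher and 2 lower. Of the 5 decreases, all but that of miR-665 then changed sign: miR-370 was at 0.09, miR-494 at 0.06, miR-487a at 0.36 and miR-380-3p at 0.47, and miR-665 stayed at -0.01. Measured from the median of all tested miRNAs, which no constant per array can move, all 5 were lower in either case, miR-665 at -0.80, miR-494 at -0.73, miR-370 at -0.70, miR-487a at -0.43 and miR-380-3p at -0.32. From that same median miR-1185 was at 0.69, miR-376b at 0.56 and miR-409a at 0.41. With the 75th percentile taken over all probes, 17 of the 30 were higher and 2 lower, and of the 269 there were 104 higher and 30 lower.

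With the scaling used, the 2 proximal miRNAs that differed were both lower in Limousin. For miR-665 (chr21:67423500-67423510, UMD 3.1, + strand, between MEG3 and RTL1) the signals were 7.49, 6.61, 6.57 and 7.02 in Holstein-Friesian and 5.93, 6.16, 6.19 and 5.95 in Limousin. All 4 Limousin arrays lay below all Holstein-Friesian ones, which were 1.82-fold higher (interval at 95% confidence from 1.34 to 2.47; limma adjusted p = 0.0080). For miR-370 (chr21:67457292-67457305, + strand), studied in liver as a regulator of fatty acid metabolism, the signals were 5.87, 5.42, 5.29 and 5.72 against 4.59, 4.82, 4.93 and 4.88. Again the breeds were apart, with Holstein-Friesian 1.70-fold higher (1.35 to 2.15; limma adjusted p = 0.0043). The 2 probes of miR-665 and of miR-370 moved the same way, at log2 differences of -1.25 and -0.86 and of -0.89 and -0.77.

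Of the distal miRNAs lower in Limousin, miR-494 read 11.26, 11.34, 10.54 and 11.04 in Holstein-Friesian and 10.13, 10.33, 10.67 and 9.86 in Limousin. Limousin replicate 3 lay above Holstein-Friesian replicate 3, so the breeds overlapped. The Holstein-Friesian mean was 1.74-fold higher (1.25 to 2.40; limma adjusted p = 0.0147; chr21:67569734-67569746, + strand). The miRNA miR-487a read 5.06, 5.36, 5.19 and 4.97 against 4.72, 4.38, 4.75 and 4.74. The breeds were apart by 1.41-fold, Holstein-Friesian above Limousin (1.15 to 1.73; limma adjusted p = 0.0147; chr21:67589917-67589932, + strand), but in the deposited value table the difference had the other sign, at 0.22. The call of miR-487a rests on 1 weak probe, as its other probes were detected on no array. On Holstein-Friesian replicate 4 the lowest signal counted as detected was 4.82, near its 4.97. The smallest of the 5 decreases was that of miR-380-3p, which read 7.33, 7.10, 7.07 and 7.22 against 6.77, 6.71, 6.88 and 6.83. Its Holstein-Friesian signals were 1.30-fold higher (1.11 to 1.54; limma adjusted p = 0.0182; chr21:67564848-67564862, + strand), with no overlap.

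The 3 increases were all distal. In the miR-376 family, whose members are known targets of adenosine-to-inosine editing in the seed, miR-376b read 7.03, 7.52, 7.62 and 7.27 in Holstein-Friesian and 7.95, 7.80, 7.70 and 7.96 in Limousin. It was 1.41-fold higher in Limousin without overlap (1.13 to 1.76; limma adjusted p = 0.0212; chr21:67579120-67579138, + strand). Its near-identical relatives miR-376d and miR-376e had differences of 0.16 and 0.14 (adjusted p = 0.401 and 0.438). The entry miR-376c, whose probe has another sequence, was at -0.06 (adjusted p = 0.843). The miRNA miR-409a read 4.95, 5.13, 4.99 and 4.83 against 5.24, 5.32, 5.22 and 5.49. It was 1.27-fold higher in Limousin without overlap (1.06 to 1.51; limma adjusted p = 0.0354; chr21:67603264-67603282, + strand), and its probe maps to 2 places. The signal was weak: on Holstein-Friesian replicate 4 the lowest signal counted as detected was 4.82, next to its 4.83. The second probe of miR-409a was detected on 1 Holstein-Friesian and 4 Limousin arrays. For miR-1185 (chr21:67581387-67581404, + strand) the signals were 3.54, 4.66, 4.02 and 4.09 against 4.63, 4.77, 4.59 and 4.84, a log2 difference of 0.63 (limma adjusted p = 0.0319). It entered the test through the breed where it is high, and with only miRNAs detected on all 8 arrays tested, the cluster had 2 increases. No Holstein-Friesian array had it well above background, and the detection limit there allows no fold. Limousin replicates 1 and 3 lay below Holstein-Friesian replicate 2.

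**Figure D3:**
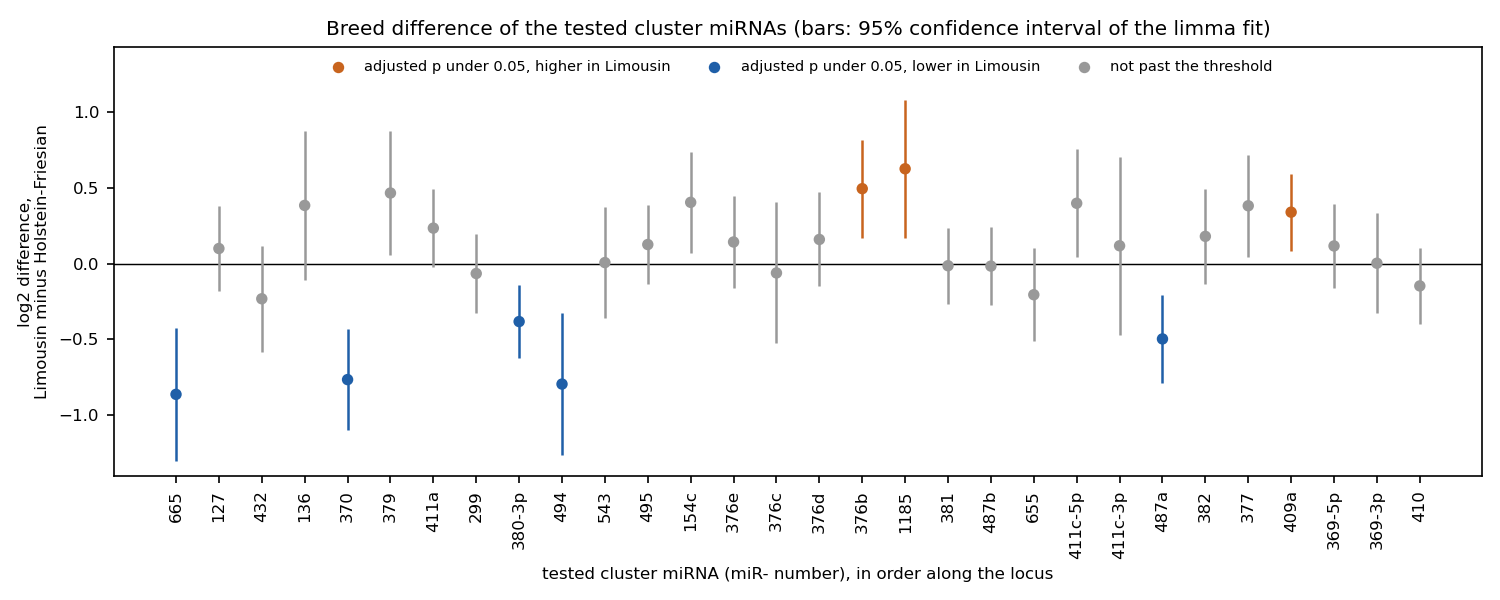
Log2 difference, Limousin minus Holstein-Friesian, of the 30 tested miRNAs in order along the locus, with the 95% confidence interval of the limma fit; blue is lower and orange higher in Limousin at an adjusted p under 0.05, with signals scaled. The 5 decreases run from -0.86 for miR-665 to -0.38 for miR-380-3p and the 3 increases from 0.34 for miR-409a to 0.63 for miR-1185.

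Among the 22 miRNAs that did not pass, 4 missed the threshold narrowly with positive differences. These were miR-154c at 0.41 (limma adjusted p = 0.0511), miR-379, the first of the distal group, at 0.47 (0.0662), miR-377 at 0.38 (0.0662) and miR-411c-5p at 0.40 (0.0694). The 3p arm of the miR-411c hairpin, detected on 1 Holstein-Friesian array, was at 0.12 (SE 0.26; adjusted p = 0.737), and the difference between the arms was not tested. Differences of the other members that did not pass ran from -0.23 for miR-432 to 0.39 for miR-136. Near 0 lay miR-299 at -0.07, miR-487b at -0.02, miR-381 at -0.01, miR-369-3p at 0.00 and miR-543 at 0.01. Somewhat above were miR-369-5p at 0.12, miR-495 at 0.13, miR-382 at 0.18 and miR-411a at 0.24, and below were miR-410 at -0.15 and miR-655 at -0.21. Within breeds the median SD of the 30 was 0.23 in Holstein-Friesian and 0.16 in Limousin, against 0.25 and 0.15 over the 269.

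The count of increases moved with single arrays, in the cluster and over the array. Without Holstein-Friesian replicate 1, Holstein-Friesian replicate 4, Limousin replicate 1 or Limousin replicate 4, 0 of the 30 were higher, and 24 to 27 of the 269, against 37 with all arrays. Without Holstein-Friesian replicate 3 or Limousin replicate 2 it was 1, and without Limousin replicate 3 it was 2. Without Holstein-Friesian replicate 2 it was 9: miR-376b, miR-409a and miR-1185 with miR-136, miR-379, miR-154c, miR-411c-5p, miR-411c-3p and miR-377. Of the 269, 56 were higher without that array. The decreases numbered 4 or 5 in each of these fits, and miR-665, miR-370, miR-494 and miR-487a were past the threshold in all 8. The call of miR-380-3p was lost without Holstein-Friesian replicate 1 or 4 or Limousin replicate 1 or 2 (limma adjusted p up to 0.0617).

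Probe composition moved with the difference as well. Spearman's rho between the log2 difference and the GC content of the probe was -0.41 across the 30 miRNAs and -0.64 across the 269. With probe length it was 0.39 and 0.66, and GC content and length were themselves tied, at -0.90 in both sets. These points share arrays and are given as a description. After each array was corrected for GC content and length, 3 of the 8 calls stayed, all of them decreases: miR-370 at -0.53 (limma adjusted p = 0.0071), miR-487a at -0.54 (0.0076) and miR-380-3p at -0.32 (0.0380). The calls of miR-665, at -0.26 (0.0734), and miR-494, at -0.50 (0.0648), ended. So did those of miR-376b, at 0.10 (0.415), miR-409a, at 0.10 (0.447), and miR-1185, at 0.34 (0.113). A further 7 passed only after the correction, which left 2 higher and 8 lower of the 30 and 26 higher and 52 lower of the 269. They were miR-369-3p at -0.54, miR-376c at -0.67, miR-655 at -0.60, miR-410 at -0.41 and miR-299 at -0.42, all lower, and miR-154c at 0.47 and miR-379 at 0.53, both higher. With no background correction 0 of the 30 were higher and 15 lower, and of the 269 there were 27 higher and 142 lower. There miR-1185 and miR-409a passed with the opposite sign, at -0.38 and -0.32.

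**Figure D4:**
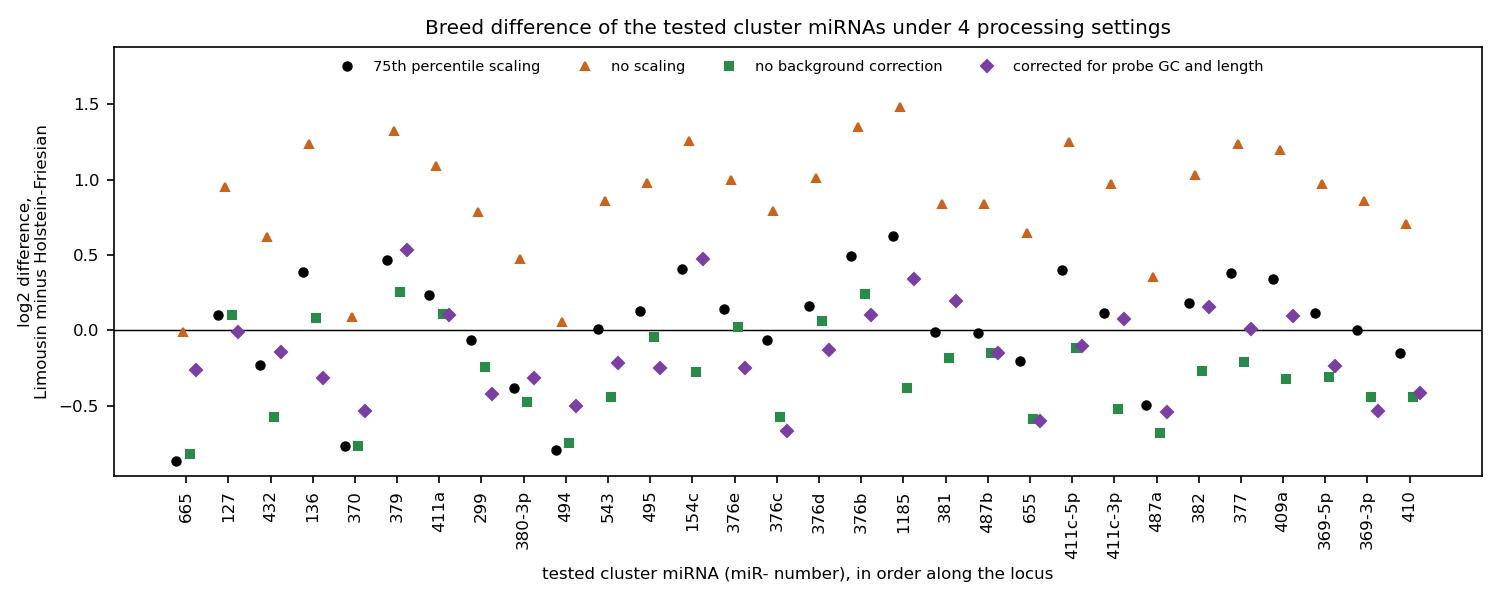
Log2 difference, Limousin minus Holstein-Friesian, of the 30 tested miRNAs with the 75th percentile scaling, with no scaling, with no background correction and after correction for probe GC content and length. Triangles (no scaling) lie above the circles throughout, and the correction takes miR-409a from 0.34 to 0.10 and leaves miR-487a near -0.5.

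Co-variation was described on the 25 miRNAs detected everywhere, after each was centred on the mean of its breed, so that breed does not enter. Over the 8 arrays the median Pearson's r of the 300 pairs was 0.39, and 75% of pairs were above 0. The 21321 pairs among the 207 other miRNAs detected everywhere had a median of 0.08, and pairs of a cluster miRNA with another miRNA 0.06. The median was 0.44 within the distal group (190 pairs), 0.08 within the proximal group (10 pairs) and 0.17 between the groups. Without Holstein-Friesian replicate 2 these medians were 0.40, 0.32 and 0.06, so the contrast of distal with proximal pairs depends on that array. The 24 pairs of neighbours along the locus had a median of 0.51 and the other 276 pairs 0.36. Among the neighbours are miR-376d with miR-376e, miR-376d with miR-376b and miR-495 with miR-543, whose probes share long runs, and both arms of the miR-369 hairpin. The 6 pairs whose probes share a run of 8 or more bases had a median of 0.76 and the other 294 pairs 0.38. The part of shared probe sequence in the neighbour median was not tested. All pairs share the same 8 arrays and their scaling.

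The shared pattern lay in 2 arrays. On Limousin replicate 4, 23 of the 25 were above the mean of their breed, and on Holstein-Friesian replicate 2, 19 of the 25. On Limousin replicate 2 it was 4, on Holstein-Friesian replicate 4 it was 6 and on Holstein-Friesian replicate 1 it was 7. The median departure from the breed mean was 0.16 on Limousin replicate 4 and 0.15 on Holstein-Friesian replicate 2, against 0.08 and -0.07 for the other 207 miRNAs. The median r of the cluster was 0.29 without Holstein-Friesian replicate 2 and 0.27 without Limousin replicate 4. Without both it was 0.06, beside 0.00 for the other miRNAs. With probe GC and length corrected for it was 0.24, beside 0.09.

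**Figure D5:**
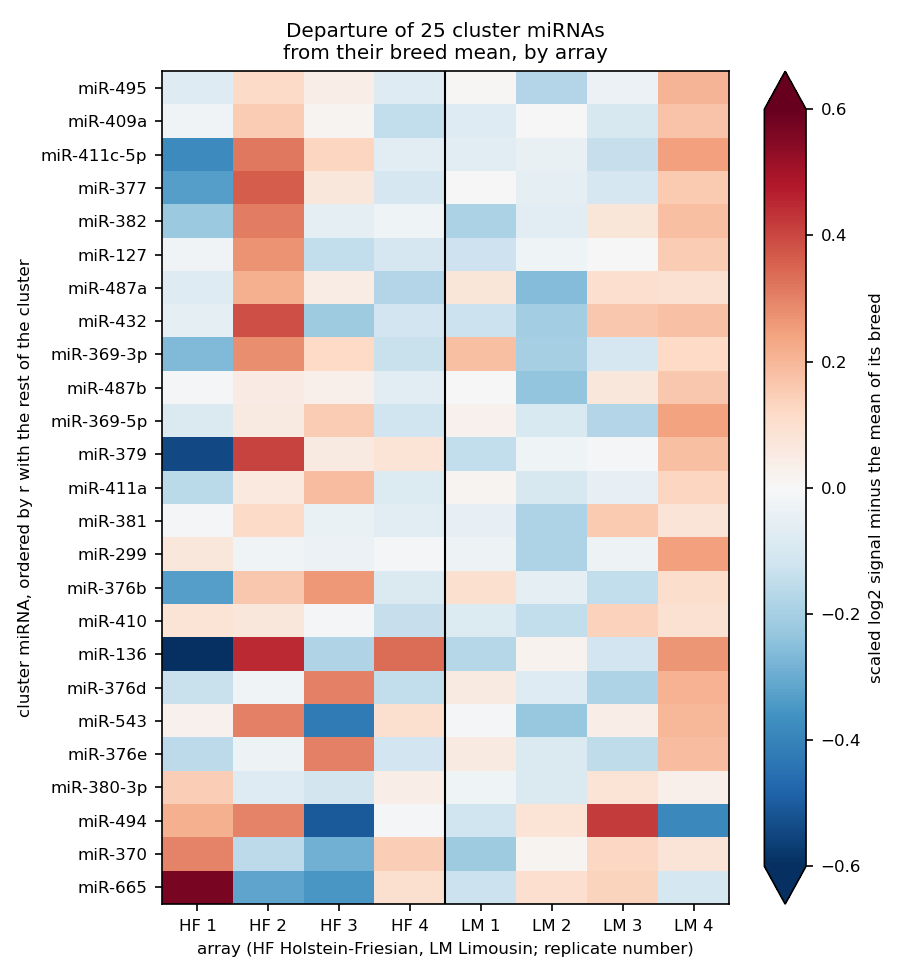
Departure of the scaled log2 signal from the mean of its breed, for 25 cluster miRNAs (in order of their r with the median of the rest) on 8 arrays; red is above and blue below, and colours stop at 0.6. Holstein-Friesian replicate 2 and Limousin replicate 4 are mostly red, and the 4 miRNAs at the foot run against the others.

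Taken 1 by 1 against the median of the other 24, miR-495 followed the cluster most closely, at r = 0.92, then miR-409a at 0.84, miR-411c-5p at 0.80 and miR-377 at 0.80. In all 18 had r above 0.5. The proximal miR-127 and miR-432 were among them, at 0.75 and 0.74. The last 4 ran the other way: miR-665 at -0.64, miR-370 at -0.35, miR-494 at -0.29 and miR-380-3p at -0.27. These are 4 of the 5 that were lower in Limousin, and their probes have 12 to 16 bases. Probes of 15 or 16 bases were also found among those that followed the cluster: miR-432 at 0.74, miR-379 at 0.66 and miR-381 at 0.62. Corrected for probe composition, the r of the 4 that ran the other way was 0.09, 0.59, 0.09 and 0.53. The correction moved the others both ways. The r of miR-377 fell to 0.31, that of miR-379 from 0.66 to 0.03 and that of miR-376b from 0.55 to -0.18, while that of miR-410 rose from 0.52 to 0.70. Uncorrected, the r of miR-380-3p was 0.02 without Holstein-Friesian replicate 2. Without Limousin replicate 4 that of miR-494 was 0.14 and that of miR-299, otherwise 0.56, was -0.11. The fifth of those lower in Limousin, miR-487a, followed the cluster at 0.74.

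The closest pair was miR-376d and miR-376e at r = 0.99, whose probes share 19 bases. The next 4 shared runs of at most 4 bases: miR-411c-5p with miR-377 at 0.97, miR-411a with miR-376e at 0.93, miR-376d with miR-369-5p at 0.93 and miR-379 with miR-411c-5p at 0.92. The 2 arms of the miR-369 hairpin, on separate probes, were at 0.70. The 5 lowest pairs each held miR-665, miR-370 or miR-494, from -0.98 for miR-665 with miR-376b to -0.88 for miR-665 with miR-369-3p. Single miRNAs outside the region followed the same pattern as closely, but most did not. The median r with the cluster profile was 0.05 over other miRNAs, against 0.66 for members with the rest of the cluster. The 5 highest outside it were miR-25 at r = 0.95, miR-128 at 0.92, miR-151-5p at 0.90, miR-148b at 0.90 and miR-196a at 0.89.

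Of 5 further miRNAs of the domain that the rule leaves out, 4 were detected on no array: miR-3956, miR-3578, miR-3957 and miR-1247-5p. The fifth, miR-1247-3p, next to DIO3 (chr21:68149492-68149502, - strand), read 9.72, 7.79, 8.85 and 8.61 in Holstein-Friesian and 6.86, 7.61, 7.18 and 7.35 in Limousin, with no overlap. The Holstein-Friesian mean was 2.82-fold higher (limma adjusted p = 0.0080), and the probe has 12 bases and 75% GC.

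The tissue carried its defining markers. All 5 miRNAs of the epithelial miR-200 family and miR-205, of basal epithelium, were detected on all arrays and did not pass the test. The same held for miR-143 and miR-145, of smooth muscle and myoepithelium, and for both arms of the endothelial miR-126. Of the red cell entries, miR-451 was detected on all arrays and did not pass, and miR-144 and miR-486 were detected on none. The 4 fibroblast entries were detected on all arrays and 3 of them were higher in Limousin, with a summed log2 signal of 12.29 to 12.46 in Holstein-Friesian and 12.69 to 13 in Limousin. Of the 5 leukocyte entries 4 were detected, all but miR-142-3p, and 2 were higher: miR-155 and miR-142-5p, the other arm of the undetected entry. The summed signal of the leukocyte entries was 10 to 10.59 against 10.53 to 10.89. These sums add probes that do not bind alike, and the brightest weigh most. The fibroblast miR-214, at a log2 difference of 0.00, and the leukocyte miR-150, at 0.02, and miR-223, at -0.15, did not pass the test. The fibroblast and leukocyte calls depend on the scaling used, under which 13.8% of all 269 tested miRNAs were higher in Limousin. The 3 neural entries, miR-124a and both arms of miR-9, and the liver marker miR-122 were detected on no array. Of the 4 skeletal muscle entries none was detected on all arrays, but some were detected on part of them. There miR-1 was detected on 2 Holstein-Friesian and 4 Limousin arrays, miR-133b on 1 and 2, miR-133a on 0 and 1, and miR-206 on none. The part of these cell types in the cluster's differences was not tested, and in bulk tissue fewer cells of a type cannot be told apart from less RNA per cell.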

How the data were processed

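Spots were quantified with Agilent Feature Extraction 10.10.1.1, and probe positions are in UMD 3.1, per the file headers. The deposited intensity of a spot was already background-subtracted and spatially detrended by the authors' software, and was not normalized between arrays. For a probe that maps once, the annotated interval is 1 base shorter than the probe. The deposited value table holds log2 values whose scale is not given in the sources used here; its columns equal log2 of the total signal per miRNA minus a constant per array (to within 1.8e-05), with column medians of -9.79 to -8.53. Rows are not centred, and it served as an alternative only.

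Outlier spots were left out and the spots of a probe averaged. Signals were scaled to the 75th percentile over probes detected on all arrays, floored at 1 and log2-transformed. The brightest probe represented a miRNA. Differences were fitted on breed alone by lmFit and eBayes (R 4.3.3, limma 3.58.1), a step checked on simulated data. Breed and replicate number came from the titles. The members and lists were chosen with earlier results of these data known. By rule, members detected on any array are named, and those past the threshold are given for every array. Mature sequences were not used here, so seed families were not formed. Alternatives covered scaling, background, probe summary, filter, floor, variance trend, the deposited table, the replicate number as a block, probe GC content and length, and leaving out arrays; leaving out 2 arrays together was added after seeing the data.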

Additional observations from a re-analysis of the deposited data

Results flagged for a closer look

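In 2 of the 60 groups of 4 arrays, 1 array lay far from the other 3, where chance gives about 1 in 20 groups. For miR-411c-3p, Limousin replicate 4 read 4.81, with the nearest other array at 4.47. For miR-487a, one of the 5 decreases, Limousin replicate 2 read 4.38, with the nearest other array at 4.72, and its call held without that array.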

How the results depend on the processing

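The counts of higher and lower cluster miRNAs, 3 and 5, moved with most settings. They were 17 and 2 with the 75th percentile over all probes (median log2 difference 0.44), 7 and 4 with quantile normalization, 25 and 0 without scaling (0.96), 0 and 16 with normexp (-0.35), 0 and 15 without background correction (-0.29), 11 and 2 with the deposited table (0.40), 0 and 3 with all miRNAs tested, and 2 and 8 after the GC and length correction (-0.18). The counts over all 269, 37 and 76, were in the same order of settings 104 and 30, 56 and 43, 172 and 2, 26 and 145, 27 and 142, 81 and 28, 30 and 61 (of 763) and 26 and 52. Leaving out 1 array gave 0 to 9 higher. The replicate number, as a block, gave 1 and 3, and with the GC and length correction 1 and 6 (median -0.18). The signals gave no sign that the numbers pair the animals, though so few arrays cannot exclude it. Same-numbered arrays correlated at -0.30, -0.25, -0.45 and 0.31 in their departures from the breed means, and 2 of 8 arrays correlated best with their own number. Over all 269 miRNAs, 84 were called with the block and 113 without it.

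Sign changes with a call on either side were these. Without scaling these passed as higher: miR-432 (0.62), miR-299 (0.79), miR-376c (0.79), miR-381 (0.84), miR-487b (0.84), miR-655 (0.65) and miR-410 (0.71). With the percentile over all probes miR-381 (0.32) and miR-487b (0.31) passed as higher, and in the deposited table miR-487a was at 0.22. With normexp, then with no background correction, these passed as lower: miR-543 (-0.46, -0.44), miR-1185 (-0.43, -0.38), miR-411c-3p (-0.54, -0.52), miR-409a (-0.36, -0.32), miR-369-5p (-0.36, -0.31) and miR-369-3p (-0.47, -0.44), and with normexp miR-154c (-0.34). After the GC and length correction, with and without the block, miR-369-3p was at -0.54. Without scaling, miR-370 was at 0.087, miR-380-3p at 0.47, miR-494 at 0.058 and miR-487a at 0.36. The median r of the cluster was 0.84 without scaling (other pairs 0.74), 0.63 with normexp (0.12), 0.59 with no background correction (0.11), 0.27 to 0.49 without 1 array, and 0.065 without both arrays named above. The cause of these changes was not tested. With every spot required above background 19 cluster miRNAs were detected on all arrays, and with any spot 28. Weak signals limit miR-1185, miR-376c, miR-655, miR-411c-3p, miR-409a and miR-487a.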
